A study of Mus musculus with 54 samples.

Results

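Type I interferon signalling from its receptor to the ISGF3 complex was described through 7 genes, Ifnar1, Ifnar2, Jak1, Tyk2, Stat2, Irf9 and Irf7, in whole mouse cerebellum. They were taken by name from the 3 deposited expression tables, and all 7 were present in each, among 19232 named genes at postnatal day 5 (P5), 19432 at P28 and 17827 at 9 weeks (9wk). All 7 also passed the filter on low values at each age, among the 15421, 16530 and 15078 genes tested, although at P5 Irf7 reached 1 CPM (reads scaled to library depth, as deposited) in only 6 of 20 libraries, none of them control or Atm. In every mutant group a gene was targeted with Nes-cre, a Cre recombinase driven by Nestin sequences and active in the neural lineage, so that microglia, which arise outside that lineage, are not expected to carry the deletion. The gene was Rnaseh2b (labelled RnaseH2B Nes-cre), Atm (Atm Nes-cre), p53 (p53 Nes-cre), or Rnaseh2b together with Atm or with p53. RNase H2, of which the Rnaseh2b product is 1 of the subunits, cleaves RNA paired with DNA, including single ribonucleotides left in the genome. Atm and p53 act in the DNA damage response. The P5 set held 3 control, 3 Rnaseh2b, 3 Atm, 3 p53, 4 Rnaseh2b/Atm and 4 Rnaseh2b/p53 libraries from total RNA. The P28 set held 5 control, 5 Rnaseh2b, 5 Atm and 5 Rnaseh2b/Atm libraries from poly-A RNA, and the 9wk set held 7 control and 7 Rnaseh2b libraries from total RNA. The sources used here do not give the exact alleles or whether controls carried Cre, and nothing in the labels says that replicates were separate animals, so p-values measure the spread between these libraries.

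Interferon alpha and beta bind a receptor made of IFNAR1 and IFNAR2. The receptor holds the kinases TYK2 and JAK1, which phosphorylate STAT2. With IRF9 it is part of the ISGF3 complex, which binds interferon-stimulated response elements (ISREs) and switches on interferon-stimulated genes. IRF7 is itself such a gene and in turn drives further interferon alpha transcription. In the brain, interferon-stimulated genes rise in Aicardi-Goutières syndrome, which mutations in RNase H2 subunits can cause.

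The promoters of Stat2 and Irf7 are shown because these genes moved in opposite directions in the same libraries. Both come from RefSeq (build GRCm38.p6), in which all 7 genes had an entry, and run 5′ to 3′ on the gene's strand. Only bases outside annotated exons are printed. Capitals mark a match to the ISRE core, GAAANNGAAA on either strand.
Stat2 (chr10:128270248-128270497, plus strand, the 250 bases before the start): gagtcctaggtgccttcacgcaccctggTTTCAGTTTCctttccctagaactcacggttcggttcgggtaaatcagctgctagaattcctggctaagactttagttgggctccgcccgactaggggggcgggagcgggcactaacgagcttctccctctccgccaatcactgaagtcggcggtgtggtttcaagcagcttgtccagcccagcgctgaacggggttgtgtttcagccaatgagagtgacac
Irf7 (chr7:141266500-141266674, minus strand, 175 bases ending 76 bases before the start): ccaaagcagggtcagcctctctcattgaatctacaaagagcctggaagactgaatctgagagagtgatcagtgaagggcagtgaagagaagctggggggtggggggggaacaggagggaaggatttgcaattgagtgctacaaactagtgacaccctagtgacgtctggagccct
The Stat2 stretch held 1 match, on the minus strand, starting at position -222 from the annotated start, and the Irf7 stretch held none. The full 250 bases before the Irf7 start, including those not printed, held none either. In all, 2.98% of 32851 promoter windows in the RefSeq table held the ISRE core. The GAS core, TTCNNNGAA, the element of STAT dimers, was found in 1 member promoter, that of Ifnar2, and in 7.02% of all windows. A match is a description of letters and not a binding site.

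Depth was 24.1 to 89.7 M reads (mega-reads) in genes at P28 and 48.2 to 95.1 M at P5, apart from Rnaseh2b/p53 replicate 3 with 711 M. Depth at 9wk could not be recovered from the deposited values. As a check of the labels, Rnaseh2b was lower in every group labelled as its mutant, by -1.02 ± 0.10 log2 (SE) at 9wk (adjusted p = 9.36e-05), -1.72 ± 0.14 at P28 (2.10e-06) and -2.27 ± 0.23 at P5 (0.000300), in limma with Benjamini-Hochberg adjustment over all genes. Trp53 was lower in P5 p53 libraries (-2.07 ± 0.31, limma adjusted p = 0.0139). The Atm transcript fell in P28 Rnaseh2b/Atm (-0.78 ± 0.07, limma adjusted p = 7.48e-09) but was not called in P5 Rnaseh2b/Atm against control (-0.34 ± 0.20, 0.279). Nor was it called in libraries labelled Atm, at -0.04 ± 0.07 at P28 (limma adjusted p = 0.734) and -0.30 ± 0.21 at P5 (0.763). The part deleted is not given in the sources used here, so the Atm transcript level neither bears out nor contradicts those labels. Granule neuron markers (10 genes) summed to 6935 to 7937 CPM in P28 control, so granule neurons, the main cell type of the cerebellum, were represented. At P5, control replicate 2 and Atm replicate 1 stood apart from their groups, and results that rest on them are given with and without them.

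**Figure D1:**
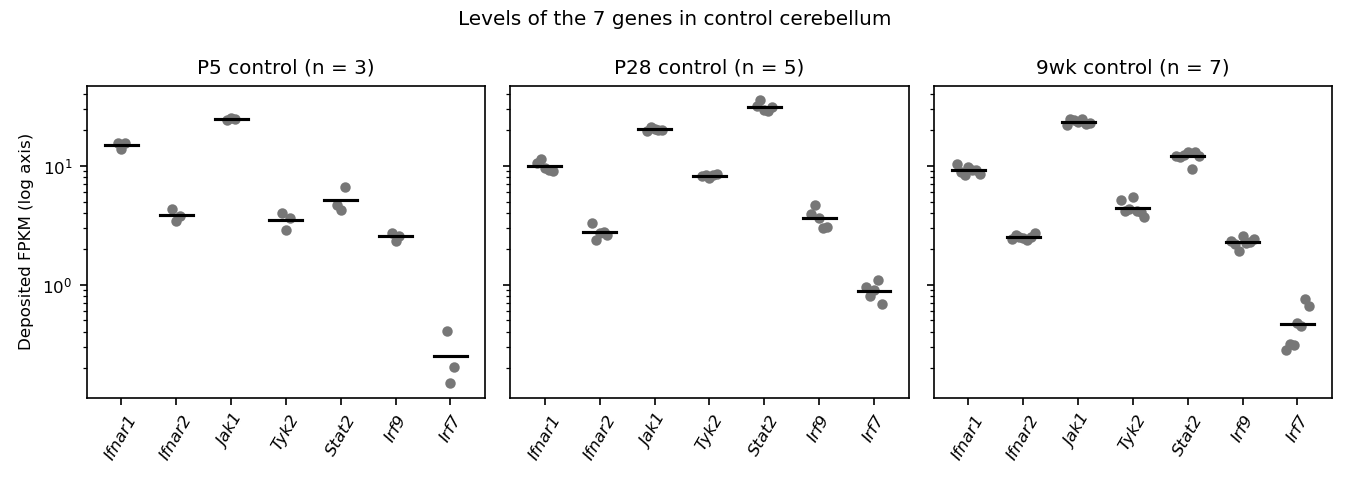
Deposited FPKM (log axis) of the 7 genes in control libraries at each age, with 1 point per library and a line at the mean. Irf7 was the lowest of the 7 at each age, and Stat2 was highest at P28 with a mean of 31.3.

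The basal machinery was unevenly expressed in control cerebellum. Levels between genes are compared as FPKM, which is scaled to transcript length. At P28 the mean FPKM was 31.3 ± 2.7 (SD, n = 5) for Stat2, 20.3 ± 0.63 for Jak1, 9.99 ± 1.0 for Ifnar1, 8.23 ± 0.25 for Tyk2, 3.66 ± 0.71 for Irf9, 2.75 ± 0.35 for Ifnar2 and 0.884 ± 0.15 for Irf7. In that order only Irf9 and Ifnar2 overlapped between neighbours. At P5 Jak1 led with 24.7 ± 0.56 (n = 3), followed by Ifnar1 with 14.9 ± 0.98, and Stat2 (5.18 ± 1.2), Ifnar2 (3.86 ± 0.45) and Tyk2 (3.48 ± 0.55) overlapped with their neighbours in the order. Irf9 stood at 2.55 ± 0.20 and Irf7 at 0.252 ± 0.13 at P5. The deposited 9wk FPKM table holds negative values, so its levels are on a shifted scale, and there Jak1 (23.4 ± 1.1, n = 7) was again first, before Stat2 (11.96 ± 1.2) and Ifnar1 (9.16 ± 0.68), which overlapped. Tyk2 (4.44 ± 0.60), Ifnar2 (2.51 ± 0.11) and Irf9 (2.29 ± 0.20) followed, the last 2 overlapping, and Irf7 was last with 0.466 ± 0.19. Jak1 and Ifnar1 were among the most abundant members at each age, and the place of Stat2 differed between ages. Age and RNA selection cannot be told apart here, because P28 was the poly-A set. The ligands were near the floor of the tables. Of 15 interferon genes fixed in a list, 13 were in the FPKM tables and 0 in the log2 CPM tables, with a highest FPKM in any library of 0.0321 at P5 (Ifna11), 0.163 at P28 (Ifnz) and 0.115 at 9wk (Ifna2).

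Calls among the 7 genes were concentrated in the P28 Rnaseh2b/Atm libraries. Differences are log2 changes of CPM, and a gene is called at a limma adjusted p under 0.05, with all groups of an age in 1 fit. At P28, 4 of 7 were called in Rnaseh2b/Atm against control, where 63.6% of all genes tested were called, so the share of members was not above that of all genes. Against Atm it was 4 of 7 (61% of all genes), against Rnaseh2b 3 of 7 (49.5%), again at or under the background, and for the Rnaseh2b by Atm interaction, which asks whether the Rnaseh2b change differs between libraries labelled Atm and those that are not, 2 of 7 (37.7%, so again under the background). None of the 7 was called in P28 Rnaseh2b against control (5.21% of all genes called) or Atm against control (1.86%). At 9wk 2 of 7 were called in Rnaseh2b against control (16.3%). At P5 1 of 7 was called in Rnaseh2b/Atm against control (9.86%) and 1 of 7 against Atm (9.5%). None was called at P5 in Rnaseh2b against control (0.681%), p53 against control (0.175%), Rnaseh2b/p53 against control (0.428%), Rnaseh2b/p53 against p53 (0.188%) or the Rnaseh2b by p53 interaction (0.00648%). For P5 Atm against control and the P5 Rnaseh2b by Atm interaction the fit called 0% of all genes, with 435 and 884 genes at an unadjusted p under 0.05. The P28 median log2 change in Rnaseh2b/Atm against control was -0.01 over the 7 genes and -0.02 over all genes tested. Comparisons with the same control or Rnaseh2b/Atm libraries share those samples and are not independent of each other.

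**Figure D2:**
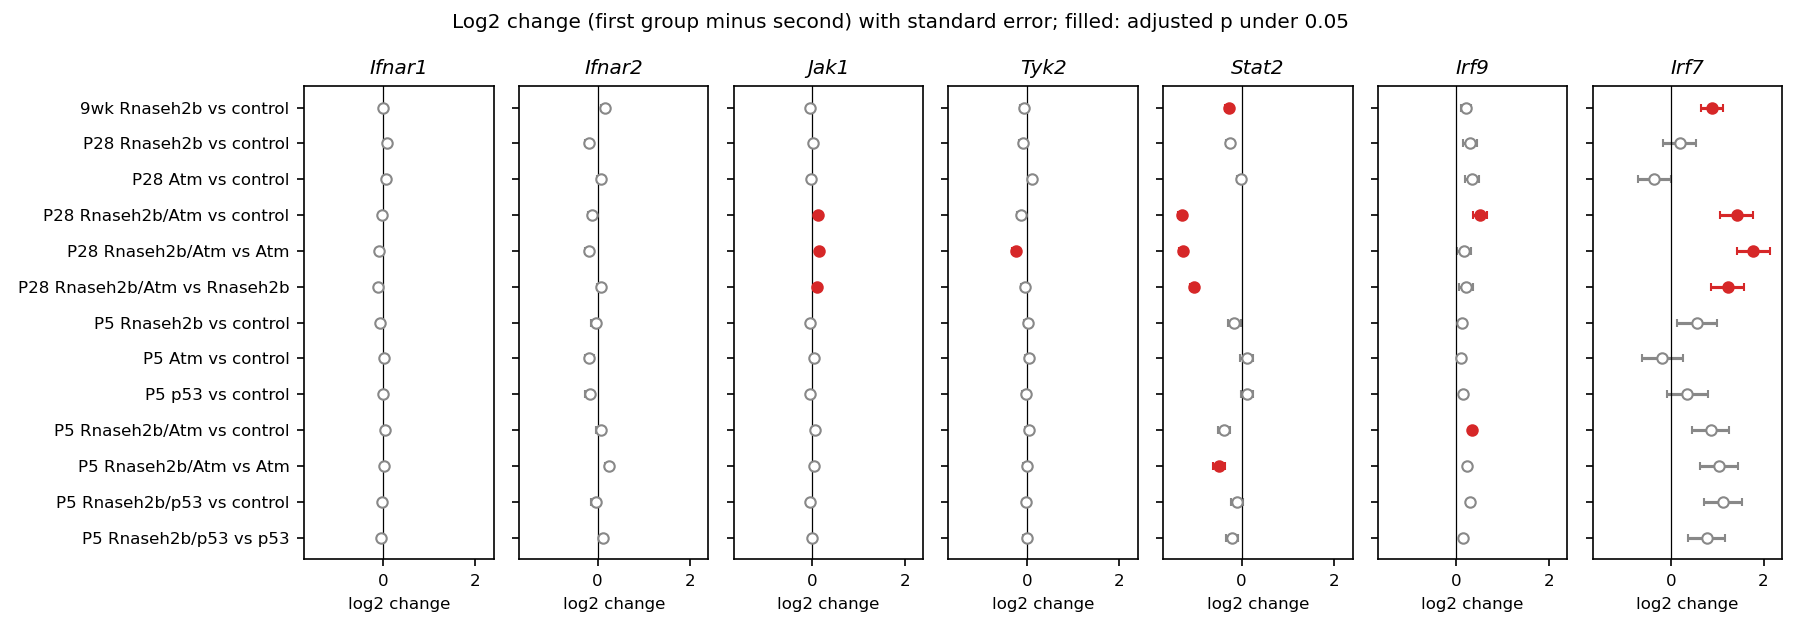
Log2 change (x axis) of each of the 7 genes (1 panel each) in 13 comparisons (y axis), first group minus second, with standard errors; filled points passed an adjusted p of 0.05. Stat2 lies to the left and Irf7 to the right in the P28 Rnaseh2b/Atm comparisons, while Ifnar1 stays between -0.10 and 0.09 in all 13.

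The receptor chains were not called in any comparison in the main fit. Alternative settings called Ifnar2 in 1 of 24 at 9wk, and in 1 of 20 for Rnaseh2b/Atm against Atm at P28 and likewise at P5. For the P28 interaction 1 of 29 called Ifnar1. Ifnar1, the low-affinity chain to which TYK2 binds, stood at 5.96, 6.10, 5.84, 5.78 and 5.74 log2 CPM in the 5 P28 controls and at 5.77, 5.93, 5.82, 5.81 and 6.03 in the Rnaseh2b/Atm libraries. The groups overlapped throughout their range, with a change of -0.01 ± 0.07 (SE, limma adjusted p = 0.911). At 9wk the Ifnar1 change was 0.01 ± 0.05 and at P5 in Rnaseh2b/Atm against control 0.05 ± 0.04. Over the 16 comparisons Ifnar1 had its widest difference, -0.17 ± 0.10, in the P28 interaction (limma adjusted p = 0.178). Ifnar2, the high-affinity chain that carries JAK1, moved more but within its spread. In P5 it was 3.45, 3.43, 3.33 and 3.21 log2 CPM in Rnaseh2b/Atm and 2.92, 3.17 and 3.24 in Atm, which overlapped, at 0.25 ± 0.09 (limma adjusted p = 0.110). The 3 p53 libraries (3.09, 3.10 and 3.19) lay just below the 3 controls (3.42, 3.19 and 3.26), at -0.17 ± 0.10 (0.934). At P28 the Ifnar2 difference between Rnaseh2b/Atm and Atm had the other sign, -0.18 ± 0.09 (adjusted p = 0.0892), and at 9wk Rnaseh2b against control gave 0.16 ± 0.09 (0.221).

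The kinases changed little in size. Jak1, the kinase shared by many cytokine receptors, was 7.29, 7.43, 7.31, 7.34 and 7.29 log2 CPM in P28 Rnaseh2b/Atm and 7.15, 7.28, 7.23, 7.18 and 7.19 in control. All 5 mutant libraries lay above all 5 controls, with little distance between them, and the difference was 0.12 ± 0.04 (1.09-fold, limma adjusted p = 0.00994). Against Atm, Jak1 rose by 0.16 ± 0.04 (adjusted p = 0.00200), with no overlap, and against Rnaseh2b by 0.10 ± 0.04 (0.0394), with overlap. The last call was lost in 10 of 20 alternative settings, so it sits at the threshold. At P5 and 9wk Jak1 was not called, with changes from -0.06 to 0.09 over those 10 comparisons, except that without the 2 P5 libraries that stood apart it rose by 0.12 ± 0.04 in Rnaseh2b/Atm against control (limma adjusted p = 0.0343), where 41.4% of all genes were then called. Tyk2 was called in 1 comparison. It was 5.13, 5.14, 5.07, 5.42 and 4.89 log2 CPM in P28 Rnaseh2b/Atm and 5.34, 5.45, 5.39, 5.19 and 5.46 in Atm, overlapping through mutant replicate 4 and Atm replicate 4, and fell by 0.23 ± 0.08 (1.18-fold, limma adjusted p = 0.0160). Without mutant replicate 5, the lowest, the Tyk2 change was -0.17 and no longer called. Against control it was -0.13 ± 0.08 (adjusted p = 0.162). At 9wk Tyk2 differed by -0.07 ± 0.08 and at P5 by at most 0.05 in either direction.

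Stat2, the ISGF3 subunit that carries the activation domain, was the member that fell most. In the 5 P28 Rnaseh2b/Atm libraries it was 5.58, 6.09, 5.99, 5.87 and 5.63 log2 CPM. In control it was 7.12, 7.32, 7.04, 6.99 and 7.13, in Atm 7.11, 7.24, 7.02, 7.12 and 7.05, and in Rnaseh2b 6.98, 6.86, 6.83, 6.67 and 6.99. Every Rnaseh2b/Atm library lay below every other P28 library. The fall was -1.29 ± 0.09 against control (2.44-fold lower, limma adjusted p = 7.58e-10), -1.28 ± 0.09 against Atm (8.00e-10) and -1.04 ± 0.09 against Rnaseh2b (3.16e-08). Of all genes tested, 2.83% had a change as low or lower against control. On the FPKM scale Stat2 went from 31.3 ± 2.7 in control to 13.2 ± 2.0 in Rnaseh2b/Atm (SD, n = 5 each). Rnaseh2b alone gave -0.25 ± 0.09 (adjusted p = 0.10) with overlap at 6.99 log2 CPM, and Atm alone -0.01 ± 0.09. The interaction was -1.02 ± 0.13 (limma adjusted p = 7.92e-06), so the Rnaseh2b difference was greater between groups labelled Atm than between those that were not.

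At 9wk Stat2 was also lower in Rnaseh2b, at 5.20 to 5.57 log2 CPM with a median of 5.36, against 5.33 to 5.77 with a median of 5.70 in control. The groups overlapped through control replicate 5, at 5.33, which stood apart from the other 6 controls. Stat2 fell by 0.28 ± 0.08 (1.21-fold, limma adjusted p = 0.0244). The libraries form 2 sets by the codes in their labels, whose mean levels are equal for each gene in the deposited values. Within codes 11 to 16 (6 libraries) the change was -0.40 ± 0.10 (adjusted p = 0.0447) and within codes 50 to 58 (8 libraries) -0.18 ± 0.10 (0.388). Without control replicate 3 or without Rnaseh2b replicate 3 it was -0.25 and -0.24 and not called. At P5 Stat2 was 3.80, 3.81, 3.73 and 3.49 log2 CPM in Rnaseh2b/Atm, below all 3 Atm libraries (3.98, 4.14 and 4.49) and all 3 controls (3.95, 3.90 and 4.45). Against Atm it fell by 0.50 ± 0.13 (1.41-fold, limma adjusted p = 0.0218) and against control the difference was -0.39 ± 0.13 (adjusted p = 0.0634). Without the 2 libraries that stood apart the values were -0.61 ± 0.13 (0.00434) and -0.49 ± 0.13 (0.00743), and 22.7% and 41.4% of all genes were called. The call against Atm was lost without Atm replicate 2 (-0.53), Atm replicate 3 (-0.35) or Rnaseh2b/Atm replicate 4 (-0.42). In P5 Rnaseh2b/p53, at 3.96, 4.12, 3.99 and 3.94, Stat2 lay below the 3 p53 libraries (4.25, 4.12 and 4.28) with a difference of -0.21 ± 0.13 that was not called.

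**Figure D3:**
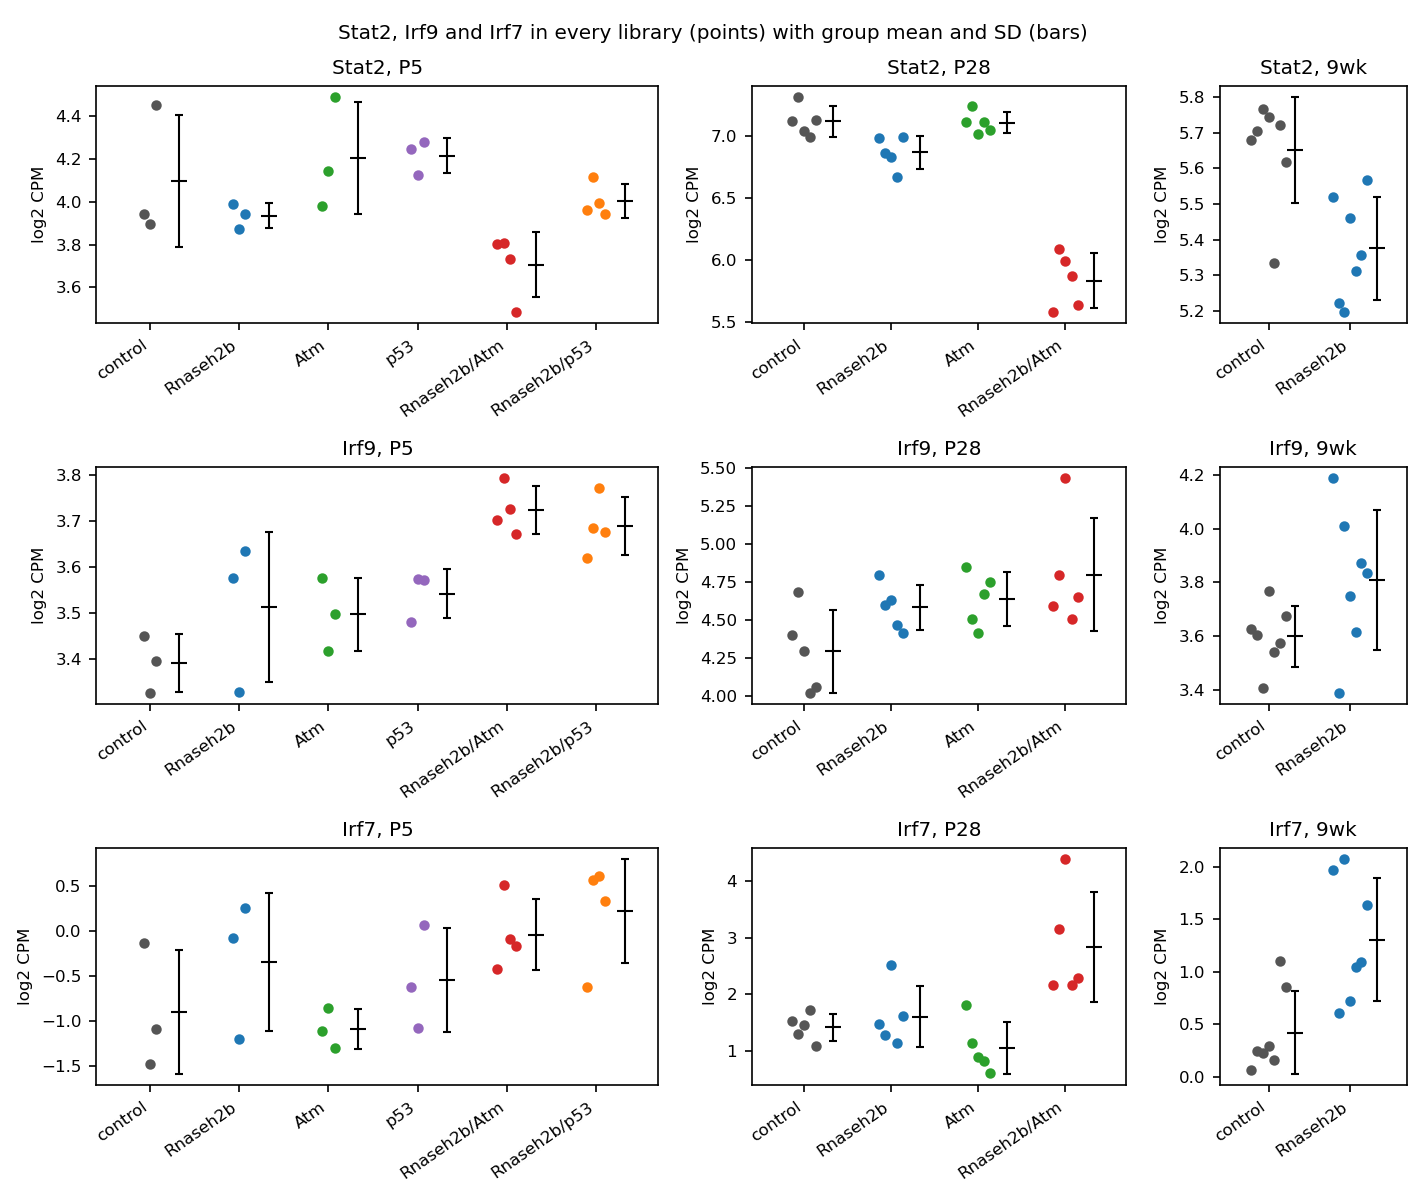
Log2 CPM of Stat2, Irf9 and Irf7 (rows) in every library by genotype at P5, P28 and 9wk (columns), with group mean and SD beside the points. The 5 P28 Rnaseh2b/Atm libraries sit between 5.58 and 6.09 for Stat2, below all others of that age, and between 2.16 and 4.39 for Irf7.

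Irf9, the DNA-binding subunit of ISGF3, moved the other way from Stat2 and by less. In P28 Rnaseh2b/Atm it was 4.59, 4.80, 5.44, 4.50 and 4.65 log2 CPM, and in control 4.40, 4.69, 4.30, 4.02 and 4.06. The groups overlapped through control replicate 2, and Irf9 rose by 0.50 ± 0.15 (1.42-fold, limma adjusted p = 0.00755). Without mutant replicate 3, the highest, it rose by 0.34 (adjusted p = 0.0221). Atm libraries, at 4.41 to 4.85, and Rnaseh2b libraries, at 4.42 to 4.80, were not called against control (0.34 ± 0.15, adjusted p = 0.264, and 0.29 ± 0.15, 0.237), and Rnaseh2b/Atm was not called against either. At P5 Irf9 was 3.70, 3.79, 3.73 and 3.67 in Rnaseh2b/Atm and 3.45, 3.33 and 3.40 in control, with no overlap, and rose by 0.33 ± 0.07 (1.26-fold, limma adjusted p = 0.00850). With only the groups compared in the fit the same change had an adjusted p of 0.0898. In P5 Rnaseh2b/p53 it was 3.62, 3.69, 3.77 and 3.68, also above all controls, at 0.30 ± 0.07 (adjusted p = 0.0761). At 9wk Irf9 was 3.39 to 4.19 in Rnaseh2b and 3.41 to 3.77 in control, at 0.21 ± 0.10 (adjusted p = 0.164). Exons of Irf9 share 123 bases with those of Rnf31 on the same strand in GENCODE M21, and Rnf31 fell by 0.55 ± 0.06 in P28 Rnaseh2b/Atm against control (adjusted p = 1.09e-07). The strand setting of the authors' counting is not given in the sources used here. Reads in shared exon bases are therefore uncertain for Irf9 and also for Irf7 (45 bases with Phrf1), Ifnar2 (315 with Gm21970), Tyk2 (554 with 1700084C06Rik) and Jak1 (4 with Raver2), while Stat2 and Ifnar1 share none.

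Irf7, an interferon-induced factor that drives interferon alpha transcription, was the member that rose most. In P28 Rnaseh2b/Atm it was 2.16, 3.16, 4.39, 2.17 and 2.28 log2 CPM, against 1.52, 1.30, 1.45, 1.72 and 1.08 in control and 1.81, 1.13, 0.88, 0.82 and 0.61 in Atm. All 5 mutant libraries exceeded all controls and all Atm libraries, and replicate 3 was by far the highest, as it was for Irf9. Irf7 rose by 1.42 ± 0.36 against control (2.67-fold, limma adjusted p = 0.00203), by 1.78 ± 0.36 against Atm (3.44-fold, 0.000263) and by 1.23 ± 0.36 against Rnaseh2b (2.34-fold, 0.00787). Rnaseh2b libraries, at 1.47, 1.28, 2.52, 1.13 and 1.61, overlapped with both, and against control the difference was 0.19 ± 0.36. The interaction was 1.59 ± 0.51 (adjusted p = 0.0184). Without replicate 3 of Rnaseh2b/Atm the change against control was 1.03 (adjusted p = 0.00404) and against Rnaseh2b 0.84 (0.0199).

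At 9wk Irf7 was 0.60 to 2.07 log2 CPM with a median of 1.10 in Rnaseh2b, and 0.07 to 1.10 with a median of 0.24 in control. The groups overlapped, 5 of the 7 controls lay below every mutant library, and Irf7 rose by 0.88 ± 0.25 (1.85-fold, limma adjusted p = 0.0254). Within codes 11 to 16 the change was 1.37 ± 0.36 (adjusted p = 0.0504) and within codes 50 to 58 it was 0.52 ± 0.26 (0.344). The 9wk call was lost without control replicate 2 (0.85), control replicate 3 (0.85), Rnaseh2b replicate 1 (0.76) or Rnaseh2b replicate 3 (0.74). At P5 Irf7 was near the limit of the filter, with a control mean of 0.580 CPM, and was not called in any comparison. The 6 libraries that reached 1 CPM were Rnaseh2b replicate 3, p53 replicate 3, Rnaseh2b/Atm replicate 2 and Rnaseh2b/p53 replicates 2, 3 and 4. Irf7 was thus tested at P5 only through groups in which its mean was above control, and its P5 differences are description and no support for a rise. Irf7 was -0.43, 0.50, -0.09 and -0.16 log2 CPM in Rnaseh2b/Atm, -0.63, 0.57, 0.61 and 0.33 in Rnaseh2b/p53, -0.08, -1.20 and 0.25 in Rnaseh2b and -0.13, -1.48 and -1.09 in control. Against control these differences were 0.86 ± 0.41 (limma adjusted p = 0.182), 1.12 ± 0.41 (0.373) and 0.55 ± 0.44 (0.649), and all groups overlapped with control. Against Atm (-1.11, -0.86 and -1.30) all 4 Rnaseh2b/Atm libraries were higher, at 1.04 ± 0.41 (adjusted p = 0.130).

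Genes that ISGF3 is known to induce rose in the libraries in which Stat2 fell. Of 30 such genes in a list, 26 were tested at P28, and 25 rose and none fell in Rnaseh2b/Atm against control, with a median of 1.35 against -0.02 for all genes, of which 63.6% were called. The list was chosen with earlier results of these data known. The filter asks for 1 CPM in as many libraries as the smallest group, so a target could be tested through the mutant libraries alone. How many were was not counted, so the counts in this paragraph may overstate the share of targets that rose. Among the targets Ifit2 rose by 1.93 ± 0.22 (limma adjusted p = 3.82e-07), Lgals3bp by 1.69 ± 0.22 (1.96e-06), Ddx58, an RNA sensor, by 1.36 ± 0.21 (1.18e-05), and Cxcl10, a chemokine, by 3.55 ± 0.55 (1.47e-05). At 9wk 14 of 22 tested rose (16.3% of all genes called), with a median of 0.53, including Usp18 (1.04 ± 0.23, limma adjusted p = 0.00899), Ifit1 (0.79 ± 0.18), Ifit2 (0.55 ± 0.12) and Herc6 (0.47 ± 0.11). At P5 16 of 22 rose in Rnaseh2b/Atm against Atm (9.5% of all genes called) and 13 of 22 against control (9.86%). Without the 2 libraries that stood apart these counts were 16 and 14 of 22, and 22.7% and 41.4% of all genes were called. In the fit with all libraries Lgals3bp stood at 1.24 ± 0.16 and 1.03 ± 0.16 and Oasl2 at 1.55 ± 0.24 and 1.34 ± 0.24. In P5 Rnaseh2b/p53, 3 of 22 rose against p53 (Oasl2, Ifi35 and Gbp2, with 0.188% of all genes called) and 2 against control (Oasl2 and Rtp4, 0.428%), and 1 of 22, Herc6, rose in P5 Rnaseh2b (0.681%). Without the 2 libraries that stood apart these counts were 4, 1 and 0 of 22, beside 0.298%, 0.441% and 0.882% of all genes called. None of 26 was called in P28 Rnaseh2b (median 0.32, with 5.21% of all genes called) or P28 Atm (-0.09, 1.86%).

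Other receptor, STAT and IRF genes moved in both directions at P28. In Rnaseh2b/Atm against control, 4 of 5 tested genes of other interferon receptors and kinases rose, beside 63.6% of all genes called, with Ifngr2 at 0.42 ± 0.07 (limma adjusted p = 1.99e-05), Il10rb at 0.68 ± 0.12, Jak3 at 0.44 ± 0.17 and Ifngr1 at 0.19 ± 0.06. The other STAT genes called in that comparison included Stat6, the mediator of interleukin 4 signals, which rose (0.86 ± 0.11), Stat3, which also rose (0.12 ± 0.04), and Stat5b, which fell by 0.42 ± 0.06. Stat5b also fell in P28 Rnaseh2b (-0.26 ± 0.06, limma adjusted p = 0.0171) and at 9wk (-0.20 ± 0.05, 0.0108). The other IRF genes moved in both directions, and those called included Irf8, a factor of the myeloid lineage (0.84 ± 0.14), Irf5 (0.34 ± 0.10) and Irf1 (0.47 ± 0.15), which rose, and Irf3, which fell by 0.35 ± 0.14 (limma adjusted p = 0.0364). At 9wk Irf1 rose by 0.41 ± 0.11 (limma adjusted p = 0.0264).

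Negative regulators of the pathway moved in both directions, with Usp18 and Isg15 also counted among the ISGF3 targets above. Of 15 tested at P28, 5 rose and 4 fell in Rnaseh2b/Atm against control, a share no higher than the 63.6% called among all genes. Usp18, an interferon-induced brake that removes ISG15 and acts on IFNAR2, rose by 2.17 ± 0.38 (limma adjusted p = 6.01e-05). Socs2, a feedback inhibitor of cytokine receptors, fell by 1.21 ± 0.09 (2.15e-09), Pias3 by 0.50 ± 0.07 and Pias4 by 0.93 ± 0.14. Socs2 fell at 9wk too (-0.61 ± 0.08, limma adjusted p = 0.000813), as did Pias2 (-0.20 ± 0.05). Socs3, a feedback inhibitor of JAK kinases, was not called at P28 (-0.10 ± 0.21), 9wk (0.26 ± 0.24) or P5 in Rnaseh2b/Atm (-0.76 ± 0.35). Socs1 was tested only at P5, where it was not called in any comparison. At P5 Usp18, Ptprc and Ptpn6 rose in Rnaseh2b/Atm against control, by 1.27 ± 0.36, 0.51 ± 0.15 and 0.41 ± 0.12, and none of the 15 tested fell (9.86% of all genes called). Without the 2 libraries that stood apart 4 rose and 5 fell, beside 41.4% of all genes.

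Markers of microglia, of granule neurons and of several other cell types moved with these results. In bulk tissue, fewer cells of a type and less RNA per cell cannot be told apart. All 16 genes of a microglia list were detected, and their summed level was 168 to 190 CPM in P28 control, 159 to 191 in Atm, 166 to 217 in Rnaseh2b and 269 to 349 in Rnaseh2b/Atm, where 15 of 16 rose (63.6% of all genes called). At 9wk it was 158 to 196 in control and 205 to 288 in Rnaseh2b, and at P5 187 to 214 in control and 281 to 317 in Rnaseh2b/Atm. Their part in the results was not tested beyond the fits with covariates given here. In P5 Rnaseh2b/p53, where the differences of Irf9 and Irf7 from control given above were not called, the microglia sum was 174 to 183. That was below all controls but above all p53 libraries, at 160 to 171. With the mean level of the microglia list as a covariate, the P28 Irf7 difference was -0.19 ± 0.68 against control and that of Irf9 0.30 ± 0.34, neither called, while Stat2 had -1.004 ± 0.19 (limma adjusted p = 0.00115). At 9wk the same covariate left Irf7 at 0.02 ± 0.43 and Stat2 at -0.13 ± 0.15. With this covariate limma called no gene of all tested at 9wk, with 907 at an unadjusted p under 0.05, and none in P5 Rnaseh2b/Atm against control (767) or against Atm (1757). At P5 it left Irf9 at 0.17 ± 0.17 against control and Stat2 at -0.26 ± 0.28 against Atm, neither called.

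Granule neuron markers, all 10 detected, summed to 6935 to 7937 CPM in P28 control and 1710 to 3566 in Rnaseh2b/Atm, and all 10 fell with a median of -1.59. All 8 genes of an oligodendrocyte list also fell, with a median of -0.70. In that comparison 63.6% of all genes were called. At 9wk the granule neuron sum was 4562 to 5774 in control and 2738 to 4201 in Rnaseh2b, where 6 of 10 fell (16.3% of all genes called). At P5 it was 734 to 1057 in Rnaseh2b/Atm, 2028, 853 and 2200 in control and 426, 1408 and 2276 in Atm. None of the 10 was called against control (9.86% of all genes called) or against Atm (9.5%). The overlap rested on control replicate 2 and Atm replicate 1, and without them 8 of 10 fell against control (median -1.09) and 6 of 10 against Atm (-0.87), beside 41.4% and 22.7% of all genes called. With this list as a covariate, chosen after seeing the data, the P28 Stat2 difference was -0.78 ± 0.21 against control (limma adjusted p = 0.0149), that of Irf9 0.0023 ± 0.40 and that of Irf7 0.54 ± 0.97, neither called, and that of Jak1 0.29 ± 0.10 (0.0369). The P28 interaction of Stat2 was then -0.60 ± 0.20 (0.0675) and no longer called, and at 9wk Stat2 stood at -0.08 ± 0.09. At P5 the covariate left Stat2 at -0.53 ± 0.09 against Atm (0.000766) and -0.30 ± 0.09 against control (0.0337). The summed microglia level did not overlap between the groups compared in P28 or P5 Rnaseh2b/Atm against control or Atm, nor at 9wk, and that of granule neurons did not at P28 or 9wk. At P5 the latter overlapped only through the 2 libraries that stood apart, so the covariate values at all 3 ages reach beyond the levels that the groups share or rest on those libraries. In P28 Rnaseh2b/Atm against control 7 of 10 markers each of endothelial cells (median 0.23), Purkinje cells (0.30) and astrocytes (0.40) rose, with 2 astrocyte markers falling. These counts stand beside 63.6% of all genes called. Of 10 choroid plexus markers 1 was called although their median was 2.43. In P5 Rnaseh2b/Atm against Atm, where Stat2 was called, 9 of 10 choroid plexus markers (median 2.95) and 7 of 10 Purkinje markers (1.68) rose (9.5% of all genes called). The choroid plexus sum was 1356 to 2245 CPM there against 40.3 to 1019 in Atm, and the Purkinje sum 1434 to 2210 against 299 to 1138. Without the 2 libraries that stood apart 9 of 10 of each rose, with medians of 2.35 and 1.06, beside 22.7% of all genes called. At 9wk 5 of 10 astrocyte and 5 of 8 oligodendrocyte markers rose (16.3% of all genes called). The part of these cell types in the results was not tested. Blood and immune markers, of which 5 of 11 were in the P28 table, summed to 4.67 to 9.00 CPM in Rnaseh2b/Atm and 4.08 to 7.22 in control.

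**Figure D4:**
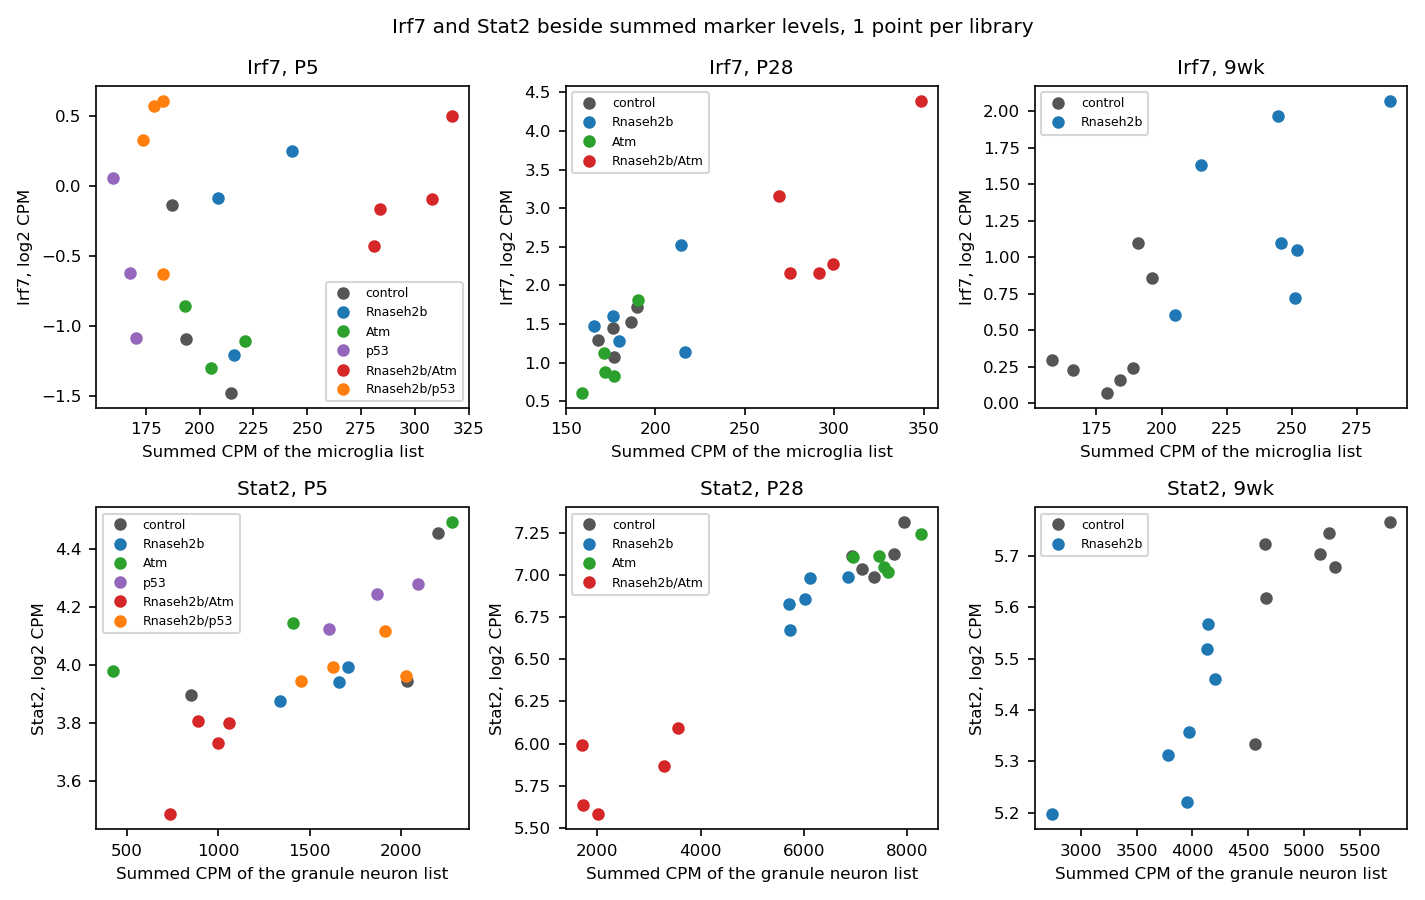
Top, Irf7 in log2 CPM against the summed CPM of 16 microglia genes; bottom, Stat2 against that of 10 granule neuron genes; 1 point per library at P5, P28 and 9wk, coloured by genotype. The P28 Rnaseh2b/Atm libraries lie at 269 to 349 CPM of microglia genes and at 1710 to 3566 CPM of granule neuron genes, apart from control.

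The genes most like the 2 extreme members differed. Over the 20 P28 libraries, which share the genotype groups and so are no independent points, the 5 genes with the highest Pearson r to Irf7 were Oasl2 (0.966), Rnf213 (0.957), Rtp4 (0.953), Ddx58 (0.949) and Mx2 (0.944). All but Rnf213 are in the list of ISGF3 targets. For these 5 genes r to Irf7 was 0.790 to 0.971 over the 14 libraries of 9wk. Over the 20 P5 libraries it was 0.233 for Mx2 and 0.706 to 0.762 for the other 4. The 5 most like Stat2 were St3gal5 (0.985), Eml5 (0.984), Atad2b (0.983), Khnyn (0.982) and Nfrkb (0.981), none of them in the target list. At 9wk Khnyn had 0.903 and the other 4 had 0.657 to 0.779. At P5 r to Stat2 was 0.377 for St3gal5 and 0.624 to 0.714 for the other 4. Of the 6 nearest neighbours of Stat2 on chromosome 10 in RefSeq, taken by position, 4 were tested at P28. Of these Timeless (-0.77 ± 0.12), Il23a (-0.80 ± 0.17) and Pan2 (-0.93 ± 0.07) fell in Rnaseh2b/Atm against control, and Cnpy2 (0.11 ± 0.06) was not called. In that comparison 63.6% of all genes were called, with 5304 of 16530 lower. Whether position bears on these falls was not tested.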

How the data were processed

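Whole cerebellum RNA was extracted with TRIzol and sequenced on an Illumina HiSeq, per the labels' protocols. These name the TruSeq Stranded Total RNA kit for all libraries, while the P28 titles and molecule entries give poly-A RNA. Per the submitters' processing notes the tools were Trim Galore, STAR, BWA, HTSeq and limma with the mm9 build, whose versions are not given in the sources used here. The authors deposited log2 CPM tables per age, in which whole reads could be recovered at P28 and P5 (100% of values within 0.01 reads). FPKM values deposited by the authors were used for levels between genes. The 9wk values deposited under that name hold 30976 negative numbers, and for each gene the means of 2 sets of label codes are equal in the deposited table, so the 9wk spread may be understated. Rows naming no gene held 19.7% to 31.8% of P5 reads and were left out. Only the rows were dropped, and the deposited P5 scale, which rests on larger library sizes than the reads in genes, was kept in the main fit. Ages were never joined.

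Genes with at least 1 CPM in as many libraries as the smallest group (3 at P5, 5 at P28, 7 at 9wk) were tested with limma 3.58.1 (R 4.3.3) on the log2 values, with a trend of variance on mean level, all groups of an age in 1 fit and, at 9wk, a term for the label codes. P-values were Benjamini-Hochberg adjusted over all genes tested and called under 0.05. The test was run on simulated data with independent noise and few changed genes. That setting differs from the broad shifts at P28, so the check does not bear on them. Tables were handled in Python 3.11.15. Interval estimates from counts do not apply, as tests rest on the spread between libraries.

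The 7 genes, the lists and the alternatives were chosen with earlier results of these data known. The text names the 7 genes, the engineered genes, from each pathway list the called genes with the 4 smallest adjusted p-values in a comparison (with Usp18, Socs1 and Socs3 always), the 5 genes most correlated with Irf7 and with Stat2, and genes sharing exons or neighbouring by position. Irf3 was named after its values were seen. Some genes that this rule selects are not reported here. Alternatives were the filter, the scale, the centring, the groups in the fit, leaving out libraries, marker lists or Xist as a covariate, the replicate number as a term, and voom. Promoters come from RefSeq GRCm38.p6 and exon overlaps from GENCODE M21, neither of which is the authors' build, so no positions were transferred. The labels do not say what a replicate number marks, and numbers were not taken as pairs in the fits reported. For P5 p53 and control all 3 same-numbered pairs correlated over 0.1 (0.26, 0.55 and 0.30, deviations from group means), and there the replicate block changed no call among the 7 genes.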

Additional observations from a re-analysis of the deposited data

Results flagged for a closer look

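Of 56 tests of a member in a group of 4 to 10 libraries, 3 had a library at the edge that stood far from the others, and chance alone gives about 1 in 20. Ifnar1 was 6.11 log2 CPM in P28 Atm replicate 2, above the next library of its group at 5.94. Ifnar2 was 3.36 log2 CPM in P5 Rnaseh2b/p53 replicate 1, above the next at 3.22. Stat2 was 5.33 log2 CPM in 9wk control replicate 5, below the next control at 5.62. The change with Rnaseh2b deletion differed at P28 between libraries labelled Atm and those that were not for 2 of 7 members, where 37.7% of all genes were called, by -1.02 ± 0.13 for Stat2 (limma adjusted p = 7.92e-06) and by 1.59 ± 0.51 for Irf7 (0.0184) on the log2 scale. With the granule neuron list as a covariate the Stat2 difference was -0.60 ± 0.20 (limma adjusted p = 0.0675) and that of Irf7 0.85 ± 0.92 (0.636), and with the microglia list -0.74 ± 0.21 (0.0433) and -0.03 ± 0.76 (0.990).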

How the results depend on the processing

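The number of members called was 0 under every alternative run for P28 Rnaseh2b and Atm, for P5 Rnaseh2b, Atm and p53 against control, for P5 Rnaseh2b/p53 against p53 and for both P5 interactions. With the microglia list as a covariate it went from 2 to 0 at 9wk, from 4 to 1 in P28 Rnaseh2b/Atm against control and against Atm, from 3 to 1 against Rnaseh2b, from 2 to 1 in the P28 interaction, and from 1 to 0 in P5 Rnaseh2b/Atm against control and against Atm. Irf7 was then no longer called at P28, at -0.19 against control, -0.0001 against Atm, -0.22 against Rnaseh2b and -0.0276 in the interaction, so no reversal of sign was shown. With the granule neuron list as a covariate, chosen after seeing the data, the counts in the same order were 0, 2, 2, 1, 0, 2 and 3, P5 Rnaseh2b/p53 against control had 1, and Tyk2 turned to 0.26 in P28 Rnaseh2b/Atm against Atm. At 9wk 1 member was called within codes 11 to 16 and 0 within codes 50 to 58. For P5 Rnaseh2b/Atm, fitting only the groups compared gave 0 against control and 0 against Atm, and leaving out control replicate 2 and Atm replicate 1 gave 3 and 2. Centring on the median gene gave 2 against control, and voom on recovered reads and rescaling to reads in genes, the latter chosen after seeing the data, each gave 2 against Atm. The cause of these changes was not tested. Leaving out 1 library gave 0 to 4 at 9wk (0 without control replicate 3 or Rnaseh2b replicate 3, 4 without Rnaseh2b replicate 2), 4 to 5 in P28 Rnaseh2b/Atm against control, 3 to 5 against Atm, 2 to 3 against Rnaseh2b and in the interaction, and in P5 Rnaseh2b/Atm 1 to 2 against control (2 without control replicate 2) and 0 to 2 against Atm.

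Voom was run with the scaling that the deposited values carry, not with TMM. Of same-numbered pairs of libraries, 0 of 7 at 9wk, 12 of 30 at P28 and 21 of 46 at P5 correlated over 0.1, among them all 3 for P5 p53 with control and with Rnaseh2b and 4 of 5 for P28 Atm with control. With the replicate block the count was 2 at 9wk, 4, 4 and 3 in P28 Rnaseh2b/Atm against control, Atm and Rnaseh2b, 3 in the P28 interaction, 1 in each P5 Rnaseh2b/Atm comparison and 0 elsewhere. At P5 the low level of Irf7 limits what could be called.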
